A study of Mus musculus with 9 samples.

Results

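The cluster of mmu-miR-322, mmu-miR-503 and mmu-miR-351, which mouse carries on the X chromosome together with mmu-miR-542 and the mmu-miR-450 family, was followed through thioacetamide (TAA) injury of the liver and after its withdrawal. The members were chosen by name: every mature miRNA called miR-322, miR-503, miR-351, miR-542 or miR-450, which gave 13 of the 1140 rows in the deposited small RNA table. Of the 13, 9 had enough reads to be tested in every comparison. Small RNA was sequenced from whole livers of 9 male C57BL/6 mice that were 8 weeks old when treatment began, 1 library per mouse and 3 mice per group. The control mice received intraperitoneal saline for 8 weeks. The TAA mice received TAA, a liver toxin that produces fibrosis, by the same route for 8 weeks. The recovery mice received the same TAA and then lived 8 further weeks untreated, so recovery and the extra time cannot be told apart, and neither can the greater age of these mice. The question was whether the cluster moved as one unit during TAA exposure and whether it stood at the control level after withdrawal.

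A miRNA is cut from a hairpin in a longer primary transcript, and either arm of the hairpin, named 5p or 3p, can be kept and loaded onto an Argonaute protein. Neighbouring hairpins are often cut from one primary transcript, so that their miRNAs start from equal numbers of precursor molecules and then differ by processing and stability. Bases 2 to 8, the seed, choose most mRNA targets. miR-322-5p and miR-503-5p are known for repressing cyclins and Cdc25a and for holding cells in G1, and miR-542-3p is known for repressing survivin (Birc5), a mitotic and anti-apoptotic protein. miR-351-5p carries the seed of the miR-125 family.

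In the GENCODE annotation of GRCm38, 7 hairpins lay on the minus strand within 6353 bases of the X chromosome (chrX:53047997-53054349). In order of transcription they were Mir322, Mir503, Mir351, Mir542, Mir450-2, Mir450-1 and Mir450b. Mir503 began 295 bases after the start of Mir322 and Mir351 began 996 bases after it, while Mir542 began 4862 bases after it and Mir450b, the last, 6271 bases after it. The same hairpin position was found in RefSeq for all but Mir351. None of the 7 hairpins overlapped another annotated gene, exon or intron. The non-coding gene C430049B03Rik ended 696 bases before Mir322 on the same strand, and the long non-coding gene Gm28730 (chrX:53051194-53053159) lay between Mir351 and Mir542.

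The mature sequences of the tested members are shown because their seeds decide which of them could act on the same mRNAs. They come from RefSeq for GRCm38.p6, all 13 rows matched, and the seed is in capitals.
miR-322-5p: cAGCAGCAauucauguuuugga
miR-503-5p: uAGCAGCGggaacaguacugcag
miR-351-5p: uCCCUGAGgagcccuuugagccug
miR-322-3p: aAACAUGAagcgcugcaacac
miR-503-3p: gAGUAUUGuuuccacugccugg
miR-542-3p: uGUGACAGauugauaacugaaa
miR-450a-5p: uUUUGCGAuguguuccuaauau
miR-450b-5p: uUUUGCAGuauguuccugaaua
miR-450b-3p: aUUGGGAAcauuuugcaugcau
The miR-322-5p sequence lies at chrX:53054306-53054327, that of miR-322-3p at chrX:53054269-53054289, that of miR-503-5p at chrX:53054027-53054049 and that of miR-351-5p at chrX:53053315-53053338. The sequence of miR-450a-5p is present in both Mir450-2 (chrX:53048339-53048360) and Mir450-1 (chrX:53048206-53048227), so its reads could not be assigned to a hairpin.

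Relatives outside the cluster are shown for comparison of the seeds. The seed of miR-322-5p is that of the miR-15/16 family, whereas the seed of miR-503-5p ends in another base, and the seed of miR-351-5p is that of miR-125a-5p and miR-125b-5p.
miR-16-5p: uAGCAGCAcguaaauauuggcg
miR-15b-5p: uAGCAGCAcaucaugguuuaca
miR-497a-5p: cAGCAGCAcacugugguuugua
miR-125b-5p: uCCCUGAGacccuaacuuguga
No other measured miRNA had the seed of any other tested member, apart from cluster rows themselves: miR-450a-1-3p has the seed of miR-450b-3p, shares its first 18 bases and differs from it at 2 positions, so that reads of this pair are uncertain. Of the rows that were not tested, miR-542-5p shares its seed with miR-6966-5p.

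The libraries held 9071847 to 12983378 counted reads. Values are given as deposited TPM, which here are reads per 1000000 counted reads of the library, and as TMM CPM, the same after TMM, a scaling that assumes most miRNAs do not change. The 3 hepatocyte marker miRNAs summed to 273163 to 298473 TPM in control, 163104 to 175762 in TAA and 242229 to 307701 in recovery livers. Going from TMM to library totals moved the log2 fold changes of the tested rows by a median of 1.12 in TAA against control, of -0.86 in recovery against TAA and of 0.18 in recovery against control. TAA replicate 3 stood apart from the other 8 libraries. It held 67184 reads of the muscle miRNA miR-1a-3p against 73 to 488 in the others, and 2281 reads of miR-133a-3p against 3 to 14. The members' counts of calls and of groups that stood apart are therefore also given without it, whereas levels, shares of reads and the likeness to miR-322-5p are given with all 9 libraries.

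The marker miRNAs of other cell types also differed. In TAA against control, with TMM, 41.7% of the 420 tested rows were called (105 higher and 70 lower). Of the markers, 3 of 5 miRNAs of stellate cells and myofibroblasts were called higher, 5 of 5 of biliary epithelium, 1 of 4 of leukocytes and 1 of 3 tested of striated muscle. All 3 hepatocyte miRNAs and 1 of 3 of red cells were called lower, and neither of the 2 endothelial miRNAs was called. Library totals gave other counts, with 4 of 5 stellate, 5 of 5 biliary, 4 of 4 leukocyte and 3 of 3 striated muscle miRNAs higher, none of the hepatocyte, red cell or endothelial miRNAs called, and none lower. On that scale 58.3% of all tested rows were called, 241 higher and 4 lower. When TAA replicate 3 was left out, striated muscle had 0 higher and 1 lower with TMM and 1 higher on library totals, red cells had 2 lower with TMM, stellate cells had 3 higher on library totals, and the other marker counts were equal to those above. Without that library 36.6% of all tested rows were called with TMM and 55.5% on library totals. Only the miRNAs of striated muscle included rows with no read in a whole group. Because whole liver was sequenced, more cells of a type and more RNA per cell cannot be told apart.

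mmu-miR-322-3p was the most abundant member over all libraries. It measured 42.9, 36.9 and 42.8 TPM in the control livers, 108, 126 and 103 in the TAA livers and 46.5, 55.3 and 56.9 in the recovery livers. The TAA livers lay above all others, and the recovery livers lay above the controls by a narrow margin. With TMM the mean was 53.6 ± 3.38 (SD, n = 3) in control, 72.0 ± 7.41 in TAA and 62.7 ± 2.14 in recovery.

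mmu-miR-322-5p, the arm with the miR-15/16 seed, measured 12.3, 11.01 and 13.2 TPM in control, 32.2, 52.2 and 37.3 in TAA and 12.04, 21.2 and 13.9 in recovery. TAA replicate 2 was the highest, and recovery replicate 2 stood above the other recovery livers and the controls. On the TMM scale the mean was 15.97 ± 1.31 in control, 25.8 ± 5.37 in TAA and 18.5 ± 4.68 in recovery. The TAA and control livers did not overlap on this scale, whereas recovery replicate 2, at 23.9, lay inside the TAA range.

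mmu-miR-503-5p, which shares most of the miR-322-5p seed, was scarce. It had 15, 9 and 9 reads in the control libraries, 51, 35 and 54 in the TAA libraries and 32, 20 and 20 in the recovery libraries. A count of 9 has an exact 95% Poisson interval of 4.12 to 17.1, for counting error alone. The TPM were 1.16, 0.877 and 0.905 in control, 4.51, 3.86 and 5.89 in TAA and 2.62, 1.63 and 1.60 in recovery. The 3 groups did not overlap in this unit, with recovery between the other two, whereas with TMM recovery replicate 1 (3.42) lay inside the TAA range. The opposite arm, miR-503-3p, had 32 to 47 reads in control, 57 to 83 in TAA and 39 to 55 in recovery libraries.

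mmu-miR-351-5p measured 8.93, 5.46 and 9.35 TPM in control, 23.1, 37.3 and 22.3 in TAA and 13.5, 11.98 and 9.15 in recovery. As with miR-322-5p, TAA replicate 2 was the highest library, and recovery overlapped control through its replicate 3. mmu-miR-542-3p measured 12.5, 6.43 and 7.64 in control, 26.1, 26.9 and 21.8 in TAA and 9.74, 11.5 and 8.34 in recovery, with every recovery liver inside the control range.

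miR-450a-5p, from the far end of the cluster, was close in level to miR-322-3p in control livers. It measured 44.5, 32.2 and 39.1 TPM in control, 66.2, 69.3 and 73.7 in TAA and 40.1, 46.1 and 41.0 in recovery. The TMM values turned the order of the groups around, with 50.5 ± 6.43 in control, 44.7 ± 1.97 in TAA and 50.4 ± 3.11 in recovery. miR-450b-5p ranged from 14 to 64 reads and miR-450b-3p from 6 to 21 reads over the 9 libraries.

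The remaining 4 rows were too scarce to be tested. miR-351-3p had 0 to 16 reads, miR-542-5p 0 to 11, miR-450a-1-3p 0 to 6 and miR-450a-2-3p a single read in TAA replicate 2. A count of 0 allows up to 3 reads, for counting error alone. These 4 rows held 0.504% of all cluster reads, whereas the 5 highest rows held 93.1%.

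**Figure D1:**
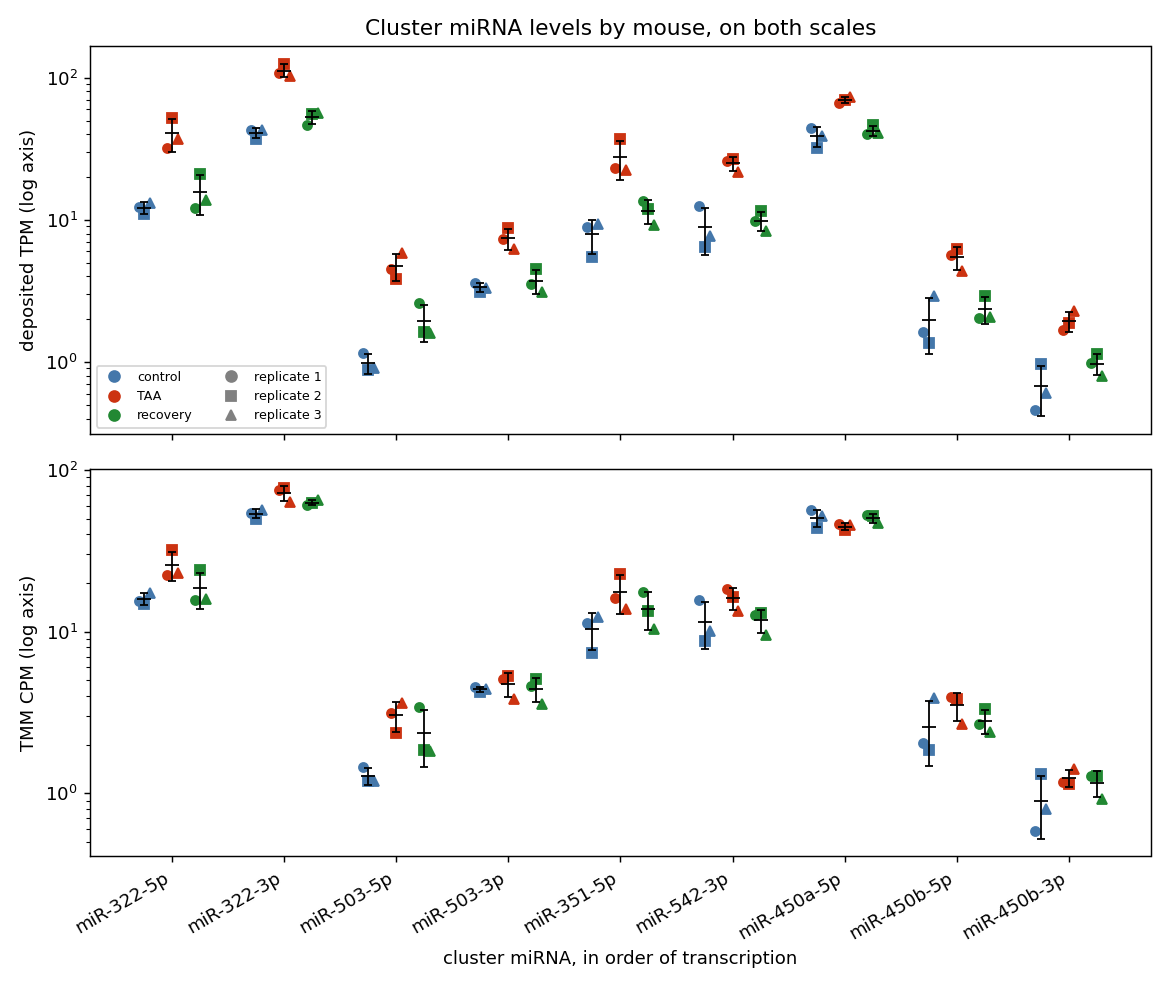
Level of the 9 tested cluster miRNAs in each mouse, in TPM (top) and TMM CPM (bottom), both on log axes, with black bars for the mean and SD of 3 mice. In TPM all 9 miRNAs have their TAA livers above their controls, whereas on the TMM scale this holds for 4 of 9 and miR-450a-5p has a lower mean in TAA.

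Taking the 13 rows together, the cluster made up 98.6 to 129 TPM in control livers, 275 to 336 in TAA livers and 132 to 157 in recovery livers. The lowest recovery liver stood just above the highest control, and all recovery livers stood below the TAA livers. With TMM the sum was 134 to 163 in control, 171 to 206 in TAA and 157 to 177 in recovery, so that recovery overlapped both.

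In TAA against control, the question was whether the cluster rose with fibrosis. A miRNA was called when its adjusted p from edgeR's quasi-likelihood test was under 0.05 and its fold change was at least 2. On the TMM scale 1 of 9 members was called, where 41.7% of the 420 tested rows were called in either direction (105 higher and 70 lower). The called member was miR-503-5p, with a log2 fold change of 1.14 (SE 0.30, adjusted p = 0.0152). This call was lost without TAA replicate 3 (1.01, adjusted p = 0.0534), without control replicate 2 (1.09, adjusted p = 0.0539) and without control replicate 3 (1.08, adjusted p = 0.0529). miR-322-5p passed the adjusted p but not the fold, at 0.61 (SE 0.21, adjusted p = 0.0406). The values of miR-351-5p, 0.68 (SE 0.29, adjusted p = 0.0752), and of miR-322-3p, 0.34 (SE 0.14, adjusted p = 0.0674), did not pass. Without TAA replicate 3, miR-322-5p stood at 0.71 (adjusted p = 0.0457), miR-322-3p at 0.44 (adjusted p = 0.0421) and miR-351-5p at 0.85 (adjusted p = 0.0569). Leaving out TAA replicate 2, the highest library of both, lowered miR-322-5p to 0.41 (adjusted p = 0.0985) and miR-351-5p to 0.42 (adjusted p = 0.22). The adjusted p of miR-322-5p was also above 0.05 without any 1 control, at 0.0895 to 0.123, and with the size factors of DESeq2, at 0.0535. It was 0.0211 with all 9 samples in one fit and 0.0142 when rows needed a mean of at least 10 CPM. Under these settings the adjusted p was 0.0163 and 0.0108 for miR-322-3p and 0.04 and 0.0279 for miR-351-5p, all under the fold limit. DESeq2, its size factors, no filter and a replicate block left miR-322-3p and miR-351-5p above 0.05.

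On library totals, 8 of 9 members were called and all were higher, where 58.3% of rows were called (241 higher and 4 lower). The count was again 8 without TAA replicate 3, where 55.5% of rows were called. The log2 fold change was 2.25 for miR-503-5p (SE 0.31, adjusted p = 0.00046), 1.74 for miR-322-5p (SE 0.23, adjusted p = 0.000382) and 1.46 for miR-322-3p (SE 0.14, adjusted p = 0.000132). The exception was miR-450a-5p, at 0.85 (SE 0.16, adjusted p = 0.00238), which was under the fold limit and lay at -0.26 on the TMM scale. The median over the 9 members was 0.38 on the TMM scale and 1.49 on library totals, beside medians of 0.11 and 1.23 over all rows. Ranked by log2 fold change on the TMM scale, the members stood between the percentiles 35.5 (miR-450a-5p) and 76.0 (miR-503-5p) of all rows.

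The number of members whose TAA and control livers did not overlap was 9 of 9 in TPM, where 79.5% of all tested rows did not overlap. It was 4 of 9 on the TMM scale (miR-322-3p, miR-322-5p, miR-503-5p and miR-351-5p), where 66.7% of rows did not overlap. Without TAA replicate 3 the counts were 9 (83.6% of rows) and 6 (73.1% of rows).

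In recovery against TAA, the question was whether the cluster fell after withdrawal. This comparison uses the same TAA livers as the one above. With TMM 0 of 9 members were called by edgeR, where 24.8% of 440 rows were called (45 higher and 64 lower). An unadjusted p under 0.05 was reached by 0 members, and DESeq2 called 0, both without a share of all rows to set beside them. The log2 fold changes ran from -0.51 for miR-322-5p (95% interval -1.13 to 0.12) to 0.15 for miR-450a-5p (-0.18 to 0.48). The interval for miR-503-5p was -1.18 to 0.39, that for miR-351-5p -1.06 to 0.31 and that for miR-542-3p -0.99 to 0.05. The intervals of miR-322-5p, miR-503-5p and miR-351-5p reached past a halving. The count was 0 without TAA replicate 3 (23.6% of rows). Leaving out TAA replicate 2 moved miR-322-5p to -0.25 (adjusted p = 0.499) and miR-351-5p from -0.37 to -0.06 (adjusted p = 0.914). When rows needed a mean of at least 10 CPM, miR-322-3p stood at -0.41 (adjusted p = 0.0381) and miR-542-3p at -0.66 (adjusted p = 0.0345). Both were under the fold limit, and the other members left by that filter had an adjusted p above 0.05.

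On library totals, 6 of 9 members were called and all were lower, where 47.0% of rows were called (4 higher and 203 lower). The values were -1.37 for miR-322-5p (SE 0.29, adjusted p = 0.0049), -1.34 for miR-542-3p (SE 0.22, adjusted p = 0.00164) and -1.28 for miR-503-5p (SE 0.32, adjusted p = 0.00995). miR-450a-5p, miR-450b-3p and miR-503-3p were not called, the first at -0.72 and the last at -0.997, just under the fold limit. The count was 7 without TAA replicate 3, where 43.0% of rows were called. The members' median was -0.34 on the TMM scale and -1.20 on library totals, beside -0.12 and -0.98 over all rows. Recovery and TAA livers did not overlap for 9 of 9 members in TPM (69.8% of rows) and for 2 of 9, miR-450a-5p and miR-542-3p, on the TMM scale (53.4% of rows). These counts were 9 (72.5% of rows) and 5 (59.5% of rows) without TAA replicate 3.

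In recovery against control, the question was whether the cluster stood at the control level. No member was called by edgeR on the TMM scale, where 11.3% of 391 rows were called (41 higher and 3 lower), or on library totals, where 12.5% were called (47 higher and 2 lower). DESeq2 called 0, and an unadjusted p under 0.05 was reached by 0 members on the TMM scale and by 2 on library totals, miR-322-3p and miR-503-5p. The shares of all rows for these counts are not given, so they cannot be set against the whole table. miR-503-5p had the highest value on both scales, 0.81 with TMM (95% interval -0.05 to 1.67, adjusted p = 0.252) and 0.97 on library totals (0.15 to 1.80, adjusted p = 0.119). miR-322-5p stood at 0.17 (-0.28 to 0.63) and miR-322-3p at 0.19 (-0.10 to 0.48). miR-450a-5p stood at -0.04 (-0.37 to 0.28). On both scales the intervals stayed below a doubling for the 2 arms of miR-322 and for miR-503-3p, miR-542-3p and miR-450a-5p. Those of miR-503-5p reached past it on both scales, as did those of miR-450b-3p (upper limits 1.32 with TMM and 1.51 on library totals), and those of miR-351-5p (1.11) and miR-450b-5p (1.07) on library totals. Recovery and control livers did not overlap for 2 of 9 members, miR-322-3p and miR-503-5p, with recovery higher, in TPM (27.9% of rows) and on the TMM scale (27.4% of rows).

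**Figure D2:**
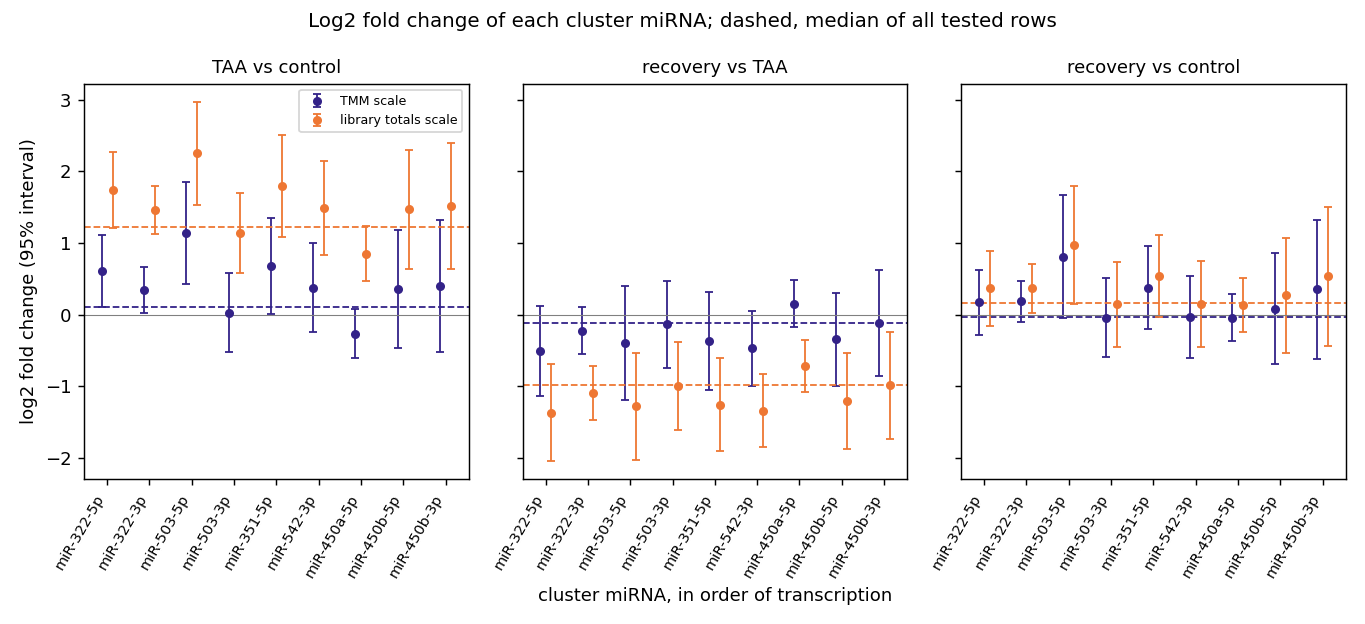
Log2 fold change of each cluster miRNA with its 95% interval in the 3 comparisons, on the TMM scale and on library totals; dashed lines give the median of all tested rows. The members lie around the dashed line of their scale, which stands at 0.11 and 1.23 in TAA against control. In that comparison miR-450a-5p and miR-503-3p lie below the line on both scales, miR-503-3p by little.

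Ratios between members of one library do not depend on the scale and ask directly whether the cluster moved as one unit. Each member was divided by miR-322-5p within its library, on log2 counts with 0.5 added. Of the 8 ratios, 2 did not overlap between TAA and control livers, where the ratio to miR-322-5p did not overlap for 60.6% of the other tested rows, cluster members included. The other 6 ratios overlapped. With 3 mice against 3 the exact two-sided permutation test cannot go below p = 0.1.

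The first ratio that stood apart was that of miR-450a-5p. There were 3.61, 2.92 and 2.97 reads of miR-450a-5p per read of miR-322-5p in control, 2.06, 1.33 and 1.98 in TAA and 3.33, 2.18 and 2.95 in recovery. The log2 ratio was 0.84 lower in TAA than in control (0.81 ± 0.35 against 1.65 ± 0.17, exact p = 0.1). Recovery was 0.66 higher than TAA (exact p = 0.1) and overlapped control, with a difference of -0.18 (exact p = 0.5).

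The second was that of miR-503-3p, at 0.294, 0.283 and 0.252 in control, 0.228, 0.167 and 0.167 in TAA and 0.293, 0.212 and 0.225 in recovery. Its log2 ratio was 0.58 lower in TAA than in control (exact p = 0.1), and recovery overlapped both groups. The same pair stood apart without TAA replicate 3, beside 65.4% of rows.

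Among the ratios that overlapped, miR-351-5p to miR-322-5p differed by 0.09 between TAA and control (-0.57 ± 0.15 against -0.65 ± 0.31, exact p = 0.8) and miR-542-3p to miR-322-5p by -0.16 (exact p = 0.6). miR-322-3p to miR-322-5p was 3.48, 3.35 and 3.25 in control and 3.37, 2.41 and 2.77 in TAA. For miR-503-5p the difference was 0.51 with TAA replicate 2, at 0.0738, inside the range of the controls, which was 0.0687 to 0.0938.

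In recovery against TAA, 1 of 8 ratios, that of miR-450a-5p, did not overlap, beside 39.2% of rows. The ratio of miR-450b-3p also stood apart without TAA replicate 3, beside 46.2% of rows. In recovery against control 0 of 8 ratios stood apart, beside 25.9% of rows. Here the largest difference was that of miR-503-5p, 0.60 (exact p = 0.3).

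miR-322-5p varied between mice of one group, and a ratio to it carries that variation. When each member was set against the sum of all other cluster reads instead, 5 of 9 stood apart between TAA and control, where 63.1% of all tested rows did. They were miR-503-5p by 0.87, miR-351-5p by 0.47, miR-322-5p by 0.40, miR-503-3p by -0.24 and miR-450a-5p by -0.68 (exact p = 0.1 for each). They were joined by miR-322-3p without TAA replicate 3 (69.0% of rows). Each sum holds the other members, so a change in an abundant member such as miR-450a-5p moves the ratios of all the rest. These separations are therefore not independent of each other. miR-450a-5p held 33.2% ± 1.11 of cluster reads in control, 23.7% ± 2.92 in TAA and 29.9% ± 0.53 in recovery, and the 3 groups did not overlap. In recovery against TAA 2 of 9 stood apart, miR-450a-5p by 0.46 and miR-542-3p by -0.31 (49.1% of rows, and 56.1% with the same 2 members without TAA replicate 3). In recovery against control 2 of 9 stood apart, miR-450a-5p by -0.22 and miR-503-5p by 0.64 (29.2% of rows).

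**Figure D3:**
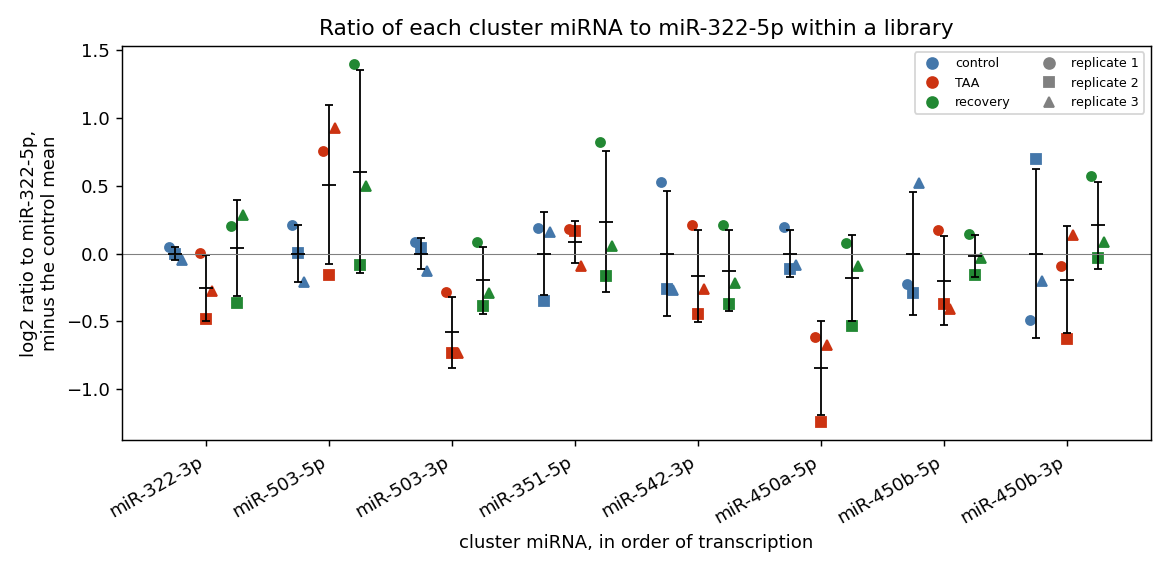
Log2 ratio of each of 8 cluster miRNAs to miR-322-5p in the same library, with 0.5 reads added and the control mean subtracted; points are mice, black bars the mean and SD of 3 mice. The TAA points of miR-450a-5p and miR-503-3p lie below all of their control points, and the other 6 overlap.

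The 2 arms of a hairpin come from the same precursor, and their ratio can be compared across all hairpins measured. This comparison was chosen after the values had been seen. The 5p arm of miR-503 held 24.2% (95% Wilson interval 15.2 to 36.2), 22.0% (12.0 to 36.7) and 21.4% (11.7 to 35.9) of the reads of both arms in control livers. In TAA livers it held 38.1% (30.3 to 46.5), 30.7% (23.0 to 39.7) and 48.6% (39.6 to 57.8), and in recovery livers 42.7% (32.1 to 53.9), 26.7% (18.0 to 37.6) and 33.9% (23.1 to 46.6). Every TAA and recovery liver lay above every control, although most of the intervals, which cover counting error only, overlapped.

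The log2 ratio of 5p to 3p of miR-503 was 1.09 higher in TAA than in control (exact p = 0.1), 6th in size among 110 hairpins with both arms tested. Without TAA replicate 3, which had the highest share, the difference was 0.81 and ranked 12 of 110. In recovery it was 0.80 higher than in control (exact p = 0.1), 7th of 106. Between recovery and TAA the groups overlapped, with a difference of -0.29 (exact p = 0.6).

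Of the 3 cluster hairpins with both arms tested, 1 stood apart in TAA against control (21.8% of all hairpins), 0 in recovery against TAA (25.9%) and 1 in recovery against control (9.43%), each time miR-503. Without TAA replicate 3, for which the share over all hairpins is not given, miR-503 again stood apart in TAA against control. miR-450b stood apart in recovery against TAA, where its difference of -0.49 ranked only 45 of 116 in size. The 5p share of miR-322 was 22.9% ± 0.60 in control, 26.3% ± 3.23 in TAA and 22.6% ± 4.41 in recovery. That of miR-450b was 73.0% ± 12.9, 73.2% ± 6.64 and 70.6% ± 2.63. The groups overlapped for both. miR-351 and miR-542 were read almost wholly from one arm, with 95.5 to 100% of reads from the 5p arm of miR-351 and 0 to 6.36% from the 5p arm of miR-542.

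**Figure D4:**
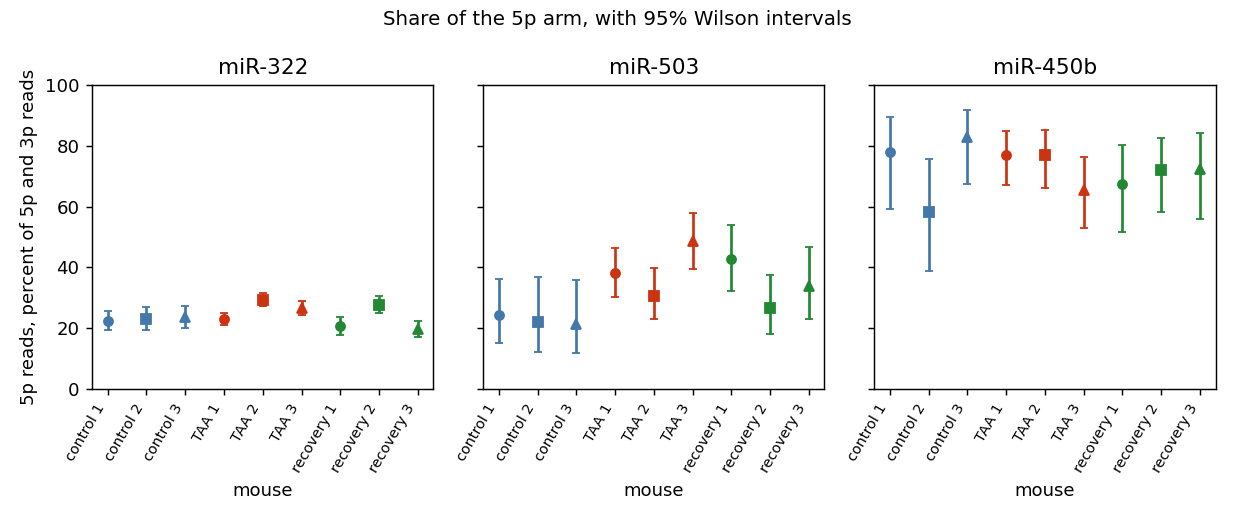
Share of 5p reads among the 5p and 3p reads of miR-322, miR-503 and miR-450b in each mouse, in percent, with 95% Wilson intervals that cover counting error only. The 5p share of miR-503 is 21.4 to 24.2% in the 3 controls and 26.7 to 48.6% in the other 6 mice.

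The miRNAs that share the miR-322-5p seed outside the cluster did not share a direction with TMM. In TAA against control, 1 of 5 was called, where 41.7% of all tested rows were. This was miR-497a-5p, at 1.05 (SE 0.15, adjusted p = 0.00103). miR-195a-5p, which is made from the same locus as miR-497a-5p, stood at 0.80 (adjusted p = 0.00926) and miR-15b-5p at 0.77 (adjusted p = 0.018). miR-15a-5p at -0.85 (adjusted p = 0.00462) and miR-16-5p at -0.56 (adjusted p = 0.00621) were lower. On library totals the last 2 were at 0.27 and 0.56, and miR-497a-5p, miR-195a-5p and miR-15b-5p were called higher, where 58.3% of rows were called. In recovery against TAA, miR-15b-5p alone was called, at -1.07 (adjusted p = 0.00935), where 24.8% of rows were called. On library totals 3 of 5 were called lower, where 47.0% of rows were called. Without TAA replicate 3, miR-497a-5p stood at 1.08 (adjusted p = 0.00283) in TAA against control and miR-15b-5p at -1.13 (adjusted p = 0.012) in recovery against TAA, and each remained the 1 relative called. Without that library 36.6% and 23.6% of all rows were called with TMM in these 2 comparisons. No relative was called in recovery against control on either scale, where 11.3% of rows were called with TMM and 12.5% on library totals.

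miR-16-5p, with 4469 to 7813 reads, outnumbered miR-322-5p in every library. miR-322-5p held 2.26% ± 0.11 of the reads with its seed in control livers, 4.26% ± 1.28 in TAA livers and 2.98% ± 0.72 in recovery livers. The range was 2.13 to 2.33% in control, 3.23 to 5.70% in TAA and 2.55 to 3.80% in recovery, so that the controls overlapped neither of the other groups. miR-351-5p held 1.81% ± 0.36 of the reads with the miR-125 seed in control, 3.06% ± 1.46 in TAA and 1.99% ± 0.23 in recovery. Of miR-125a-5p and miR-125b-5p, 0 of 2 were called on the TMM scale in TAA against control, at 0.20 and -0.05, and 2 of 2 on library totals, at 1.32 and 1.07 (without TAA replicate 3, 0 of 2 with TMM and 1 of 2 on library totals). The shares of all rows called were 41.7% with TMM and 58.3% on library totals (36.6% and 55.5% without TAA replicate 3).

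The profile of miR-322-5p over the 9 livers was compared with that of every other row, as the root mean square difference of log2 TMM CPM centred on the control mean. Among all 382 rows tested in every comparison, miR-322-3p was the closest (0.236, beside a median of 0.693). miR-450b-5p ranked 8, miR-351-5p 19, miR-542-3p 27, miR-450b-3p 43, miR-503-3p 63, miR-503-5p 95 and miR-450a-5p 131. The added 1 CPM shrinks the differences of the scarce members. Outside the cluster, among 221 rows of at least 10 CPM, the closest were miR-674-3p (0.264), miR-151-5p (0.266), miR-150-5p (0.275), miR-99b-5p (0.276) and miR-350-3p (0.277). These are descriptions over 9 livers that share libraries and scaling.

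The cluster was also set against the cell type markers within each library, a measure chosen after the values had been seen. Per 1000 reads of the 5 stellate cell and myofibroblast miRNAs there were 4.65 to 6.25 cluster reads in control livers, 4.34 to 11.4 in TAA livers and 4.38 to 7.85 in recovery livers, and the 3 groups overlapped. This sum was mostly miR-143-3p, which held 93.5 to 98.0% of it in every library and was not called with TMM (-0.02) but was on library totals (1.10). On library totals 4 of the 5 were called higher in TAA against control (58.3% of all rows called), and 3 without TAA replicate 3 (55.5%). Which call was lost is not given. Per 1000 reads of miR-199a-3p, which was called at 1.66, there were 676 to 794 cluster reads in control, 195 to 385 in TAA and 501 to 627 in recovery, and the groups did not overlap. Among all tested rows, the ratio to the other cluster reads did not overlap for 63.1% in TAA against control. The share was 49.1% in recovery against TAA and 29.2% in recovery against control. Such a ratio does not separate a change of the cluster from a change of the marker. Per 1000 reads of miR-214-3p, also called higher, there were 8612 to 10614 in control, 2589 to 3149 in TAA and 6880 to 8548 in recovery. For miR-199a-5p, the third that was called, there were 657 to 813 in control, 235 to 454 in TAA and 620 to 703 in recovery, which overlapped control. The order was the opposite for miR-145a-5p, which was not called, with 679 to 814 in control and 889 to 1610 in TAA. Recovery, at 790 to 955 for miR-145a-5p, overlapped both. The summed level of these miRNAs was 19241 to 24643 TPM in control, 29450 to 64191 in TAA and 16755 to 31359 in recovery. Per 1000 reads of the 5 biliary miRNAs there were 208 to 229 cluster reads in control, 34.7 to 61.7 in TAA and 113 to 139 in recovery. Their summed level was 430 to 577 TPM in control, 5441 to 7927 in TAA and 950 to 1255 in recovery. The part of either cell type in the cluster's values was not tested.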

How the data were processed

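Small RNA libraries of 9 mouse livers (3 control, 3 TAA, 3 recovery) were analysed. The authors aligned the reads to mm10 with Bowtie 1.3.0 and deposited raw counts per mature miRNA and TPM. The deposited TPM equals the CPM of the library, without length. Libraries held 9071847 to 12983378 counts, and the precision of scarce rows was limited by counting error and the spread of 3 mice. Groups came from the labels, all columns were matched and none was left unused. Each comparison of 6 libraries was fitted with edgeR 4.0.16 (R 4.3.3; TMM, filterByExpr with a minimum count of 10, quasi-likelihood test, Benjamini-Hochberg adjustment over all rows). The SE is the log2 fold change divided by the root of F. Alternatives were library totals, size factors, DESeq2 1.42.0, other filters, all 9 samples, a replicate block and leaving out each sample. Ratios were tested with SciPy 1.17.1 by exact permutation. The script was tested on simulated counts. All cluster rows are named, seed relatives with the same bases 2 to 8 are named, and the 5 most similar rows are named. Members, lists and tests were chosen with earlier results of these data known. Marker lists covered hepatocytes, stellate cells and myofibroblasts, leukocytes, endothelium, red cells, biliary epithelium and striated muscle.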

Additional observations from a re-analysis of the deposited data

How the results depend on the processing

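The counts in this section are of members only, without the share of all rows under each alternative. In TAA against control 1 member was called with DESeq2, with its size factors, with all 9 samples in one fit and with the replicate block. The count was 8 on library totals (8 there without TAA replicate 3), 2 with the adjusted p alone, 0 with no filter (miR-503-5p adjusted p = 0.0741), 0 among the 5 members left by a mean of at least 10 CPM, where miR-503-5p was not tested, and 0 to 1 when each library was left out. In recovery against TAA it was 6 on library totals (7 there without TAA replicate 3) and 0 under every other alternative run; in recovery against control it was 0 under all alternatives run. Same-numbered mice came from different groups, and their deviations correlated at -0.36 to 0.37, beside -0.40 to 0.42 for differently numbered mice. The labels do not say whether the numbers pair the samples, and values from so few mice cannot decide it. The replicate block moved no count of calls, which stayed at 1, 0 and 0, and took the adjusted p of miR-322-5p in TAA against control to 0.0514. The cause of these changes was not tested.

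With ratios to the other cluster miRNAs, 5, 2 and 2 ratios stood apart in the 3 comparisons, against 2, 1 and 0 with miR-322-5p; leaving out each library gave 2 to 4, 1 to 3 and 0 to 2, and a pseudocount of 1 gave 2, 1 and 0. Leaving out TAA replicate 1 gave the 4 and the 3, leaving out TAA replicate 3 or recovery replicate 2 gave 2 in recovery against TAA, and in recovery against control recovery replicate 2 gave the 2 and recovery replicate 1, control replicate 2 or control replicate 3 gave 1. The 5p to 3p difference of miR-503 ran from 0.81 to 1.35 (TAA against control) and 0.54 to 1.05 (recovery against control) when each library was left out.

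Directions turned only for members not called on the TMM scale, of which miR-503-3p was called higher on library totals in TAA against control. On library totals miR-450a-5p stood at 0.85, -0.72 and 0.14 in the 3 comparisons (0.81 and -0.68 in the first 2 without TAA replicate 3), and in recovery against control miR-503-3p at 0.14 and miR-542-3p at 0.15. A mean of at least 10 CPM gave miR-450a-5p -0.035 in recovery against TAA and 0.026 in recovery against control. In TAA against control miR-503-3p was at -0.024 with both the size factors of DESeq2 and DESeq2. In recovery against control all 9 samples gave miR-503-3p 0.0017 and miR-542-3p 0.018, and the replicate block gave miR-542-3p 0.013. Leaving out each library gave miR-503-3p -0.085 to 0.18 in TAA against control, miR-450b-3p -0.19 to 0.067 and miR-503-3p -0.24 to 0.040 in recovery against TAA, and in recovery against control miR-322-5p -0.032 to 0.30, miR-450a-5p -0.16 to 0.040, miR-450b-5p -0.11 to 0.45, miR-503-3p -0.13 to 0.077 and miR-542-3p -0.22 to 0.28.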
